A study of Homo sapiens with 19 samples.

Results

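18S-Um116 and 18S-Um121 are methylated uridines of 18S ribosomal RNA that lie 5 nucleotides apart. They were selected as the sites whose deposited guide annotation names SNORD42A, SNORD42B, SNORD4A or SNORD4B, which gave 2 of the 120 sites measured. The annotation lists SNORD42A and SNORD42B for 18S-Um116, and SNORD4A and SNORD4B for 18S-Um121, so each site has a pair of guide copies. In the RefSeq gene table of assembly GRCh38.p14 all 4 guides lie within the span of RPL23A, in the order SNORD42B, SNORD4A, SNORD42A and SNORD4B, with annotated lengths of 67, 72, 61 and 74 nucleotides. The end counts of the 31 positions from 12 nucleotides before to 18 nucleotides after 18S-Um116, out of 7000 rRNA positions, were examined with them.

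Box C/D snoRNAs such as these base-pair with rRNA and place 1 nucleotide in the active site of fibrillarin (FBL), which adds a methyl group to the 2′ oxygen of its ribose. Most human box C/D snoRNAs are cut out of introns of host genes, many of which encode parts of the translation machinery. RPL23A encodes the ribosomal protein uL23 of the large subunit. SNORD42A has been described as needed for the growth of acute myeloid leukaemia cells, and 18S-Um116 as the nucleotide it methylates.

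Ribose methylation was measured by RiboMethSeq in 19 libraries of total RNA. All came from Kasumi-1, a long-established cell line of acute myeloid leukaemia. 14 libraries form 7 knockdown (KD) groups of 2, all induced with doxycycline at 100 ng/ml. In order these are FBL KD with the FBL mutant titled FBLTri, FBL KD with the mutant titled FBLQua, FBL KD with wild-type FBL, FBL KD with empty vector, control KD with empty vector, FBL KD without re-expression and control KD without re-expression. Here, without re-expression stands for knockdown libraries whose titles name neither an FBL construct nor an empty vector. Libraries with empty vector also lack an FBL construct by their titles. The other 5 libraries, for which no doxycycline is stated, come from SNORD127 knockout (KO) clones and a control clone. They are clone C1 with SNORD127, clone C1 with an empty vector, the KO clones C1 and C34 titled without a construct, and the control clone. Of these libraries 3 share clone C1. The titles were followed where column names differ: the libraries titled FBLTri carry Dual in their column names and those titled FBLQua carry Tri, so each value of a mutant rests on the titles. Column names contain shFBL1 and shFBL2 in FBL KD without re-expression and shFBL4 in FBL KD with a vector. If these numbers name different knockdown constructs, background and construct cannot be told apart in FBL KD cells. The labels name neither the amino acid changes of the mutants nor whether replicates came from separate cultures. The p-values therefore measure the spread among these libraries only, and that spread may be technical.

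Alkaline hydrolysis breaks RNA next to riboses without a methyl group, so a methylated nucleotide leaves a gap in the fragment ends. The deposited score C is a fraction: 1 minus the end count at the base after the site divided by a weighted mean of the counts of 6 positions on either side. It approaches 1 where all molecules are protected. The base whose count enters the score of one site lies in the other site's flank, with a weight of 0.6 against 1 for the nearest position. Libraries held 5533150 to 18835537 end counts, with 37850 to 176658 in the window of 31 positions. The 95% counting interval of score C had half-widths of 0.00566 to 0.0193 at 18S-Um116 and 0.00393 to 0.0127 at 18S-Um121. Replicate 2 of control KD with empty vector had 20.8% of its counts at 1 rRNA position and the lowest share of counts in that window, 0.458%.

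Both sites left a gap in every library. The base after 18S-Um121 had the lowest count of the 31 positions in all 19 libraries. The base after 18S-Um116 was the next lowest in 17 of them and the third lowest in replicate 1 of FBLTri and replicate 1 of FBLQua.

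18S-Um116 had scores of 0.688 and 0.701 with FBLTri. With FBLQua its scores were 0.729 and 0.756. FBL KD cells with wild-type FBL had 0.883 and 0.915 there. The FBL mutant libraries are the 4 lowest of all 19 and do not overlap with any other group. Of all 120 sites, limma called 20% lower and 16.7% higher with FBLTri than with empty vector. With FBLQua it called 11.7% lower and 7.5% higher. Against wild-type FBL, 62.5% and 59.2% were called lower with FBLTri and FBLQua, and 0% and 0.833% higher. FBL KD cells with empty vector had 0.847 and 0.872 at 18S-Um116, against 0.947 and 0.946 in control KD cells with empty vector. Without re-expression the scores were 0.908 and 0.897 in FBL KD cells and 0.974 and 0.970 in control KD cells. In both backgrounds all FBL KD libraries lie below all control KD libraries. Over both backgrounds limma called 71.7% of all 120 sites lower on FBL KD and 1.67% higher. How many other sites separate library by library was not counted.

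18S-Um121 had scores of 0.919 and 0.909 with FBLTri. With FBLQua they were 0.913 and 0.928, and with wild-type FBL 0.928 and 0.951. These 3 groups lie close together, the mutants slightly below wild-type FBL. FBL KD cells with empty vector had 0.918 and 0.933 at 18S-Um121, against 0.944 and 0.934 in control KD cells with empty vector. Without re-expression the scores were 0.981 and 0.979 in FBL KD cells, against 0.993 and 0.989 in control KD cells. At this site the 4 highest of the 19 are the FBL KD and control KD libraries without re-expression. Libraries with empty vector, which also lack re-expressed FBL, are not among these 4. Neither are the SNORD127 KO clones and control clone titled without a construct, at 0.957, 0.963 and 0.960. 18S-468 also had its highest scores in the knockdown libraries without re-expression, and how many other sites do was not counted.

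**Figure D1:**
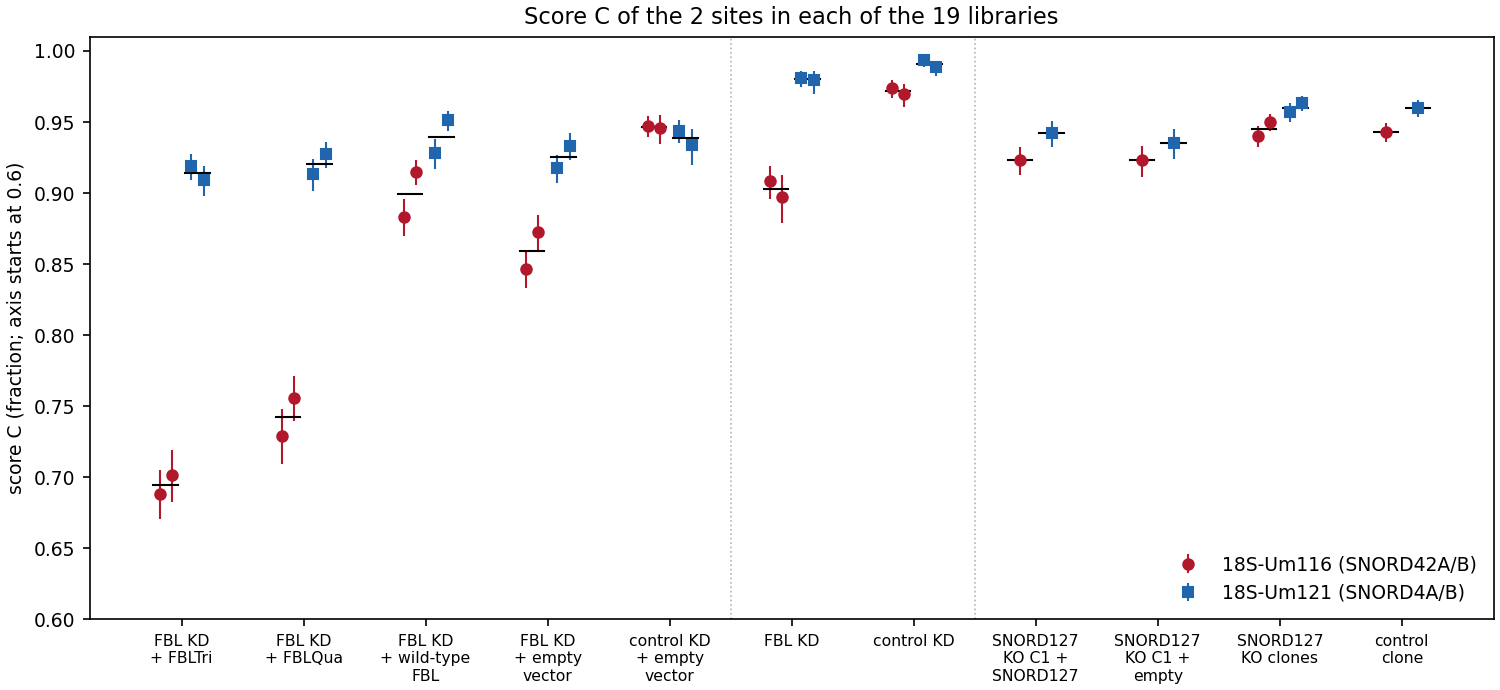
Score C (fraction, axis from 0.6) of 18S-Um116 (red circles) and 18S-Um121 (blue squares) in each library, by group, with 95% counting intervals and group means as black bars; dotted lines separate vector, no re-expression and SNORD127 libraries. The 4 FBL mutant libraries sit at 0.688 to 0.756 at 18S-Um116, below all other libraries, while 18S-Um121 stays between 0.909 and 0.993 throughout.

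FBL knockdown lowered 18S-Um116 on the deposited scale, where no change at 18S-Um121 was called. 18S-Um116 averaged 0.881 ± 0.027 in FBL KD cells and 0.959 ± 0.015 in control KD cells over both backgrounds (SD, n = 4 each). The difference of -0.0781 had an SE of 0.0099 and an adjusted p of 8.00e-05 (limma over all 120 sites). 18S-Um121 averaged 0.953 ± 0.032 in FBL KD cells and 0.965 ± 0.031 in control KD cells (SD, n = 4 each), a difference of -0.0121 with a 95% interval from -0.0266 to 0.0025 (adjusted p = 0.121 by limma). The spread at 18S-Um121 within either set of 4 follows the background. In this comparison 71.7% of all sites were called lower and 1.67% higher, and the median change over all 120 sites was -0.0853. The fall at 18S-Um116 therefore lies near the median site, 63rd of 120 from the most negative.

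The library medians moved by -0.118 between these sets. Relative to that shift, with library medians made equal, 18S-Um116 was higher in FBL KD cells by 0.0401 (adjusted p = 0.00229 by limma) and 18S-Um121 by 0.106 (adjusted p = 1.61e-07 by limma). The fall of 18S-Um116 thus holds on the deposited scale and turns when library medians are made equal. The shift of the library medians is not the median change over sites, which was -0.0853. Beside that median the change of -0.0781 at 18S-Um116 lies close. On a logit scale, which stretches differences close to 1, 18S-Um121 was also called lower (-0.528, adjusted p = 0.0112 by limma).

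On the deposited scale both backgrounds were compared separately. With empty vector 18S-Um116 changed by -0.0870 (adjusted p = 0.000484 by limma) where 67.5% of sites were called lower and 0.833% higher, and without re-expression by -0.0692 (adjusted p = 0.00211 by limma) where 59.2% were called lower and 1.67% higher. At 18S-Um121 the changes were -0.0132 and -0.0110 (adjusted p = 0.222 and 0.330 by limma). On a logit scale 18S-Um121 was called lower without re-expression (-0.848, adjusted p = 0.00617 by limma) and not with empty vector (-0.208, adjusted p = 0.444 by limma), and its unprotected share was 2.23 and 1.22 times as high. The logit difference between the backgrounds was not called (adjusted p = 0.241 by limma). Comparisons between the backgrounds also set column names with shFBL1 and shFBL2 against shFBL4 in FBL KD cells. Between the backgrounds (with empty vector minus without) the knockdown effect differed by -0.0178 at 18S-Um116 (95% interval -0.0629 to 0.0273) and -0.00228 at 18S-Um121 (95% interval -0.0314 to 0.0268), and neither was called (adjusted p = 0.554 and 0.916 by limma), where 25% of sites were called lower and 5% higher.

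On the deposited scale the gap between the neighbours was wider in the FBL KD libraries, and its call depended on the test and scale used. The score of 18S-Um121 minus that of 18S-Um116 averaged 0.0717 ± 0.0087 in FBL KD libraries and 0.0057 ± 0.0160 in control KD libraries (SD, n = 4 each). An exact permutation test of this difference of 0.0660, two-sided, gave p = 0.0286, the smallest value possible with 70 arrangements of the libraries. These arrangements exchange libraries across backgrounds. With libraries exchanged within a background only, a choice made after seeing the data, the exact permutation p was 0.0556, the smallest that 36 arrangements allow. All 4 FBL KD libraries had a larger gap, 0.0610 to 0.0823, than any control KD library, -0.0121 to 0.0194. On a logit scale the difference of 0.660 was not called (exact permutation p = 0.257). In the mutant libraries the gap reached 0.208 to 0.230 with FBLTri and 0.172 to 0.184 with FBLQua, against 0.0610 and 0.0709 with empty vector; this difference in gap was not tested.

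The end counts behind the score were as follows. The base after 18S-Um116 held 9.16 and 10.3% of its flanking mean in FBL KD cells without re-expression, against 2.59 and 3.02% in control KD cells. With empty vector it held 15.3 and 12.8% in FBL KD cells and 5.27 and 5.43% in control KD cells. The unprotected share at 18S-Um116 was thus 3.46 times as high without re-expression and 2.63 times as high with empty vector. At the base after 18S-Um121 the shares were 1.90 and 2.07% in FBL KD cells, against 0.658 and 1.12% in control KD cells without re-expression, and 8.24 and 6.66% against 5.61 and 6.64% with empty vector.

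Counts were also tested against the whole library instead of the flanks. The base after 18S-Um116 had 26.3, 24.2, 48.4 and 33.6 CPM (counts scaled to the library total) in the 4 FBL KD libraries, against 8.93, 9.94, 16.2 and 8.36 in the 4 control KD libraries. Its count rose by 1.94 on the log2 scale (adjusted p = 0.000518, edgeR over 6538 positions). In this test 1.06% of positions were called higher and 0% lower. This base was the 1 called among the 31 positions of the window, whose median log2 change was 0.379. The base after 18S-Um121 changed by 1.18 on the log2 scale and was not called by edgeR (adjusted p = 0.141), but DESeq2 called it (1.17, adjusted p = 0.00169), and so did edgeR without replicate 2 of control KD (1.70, adjusted p = 0.000949). Its counts are low there, 43 and 26 reads in FBL KD libraries and 12 and 18 in control KD libraries without re-expression.

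**Figure D2:**
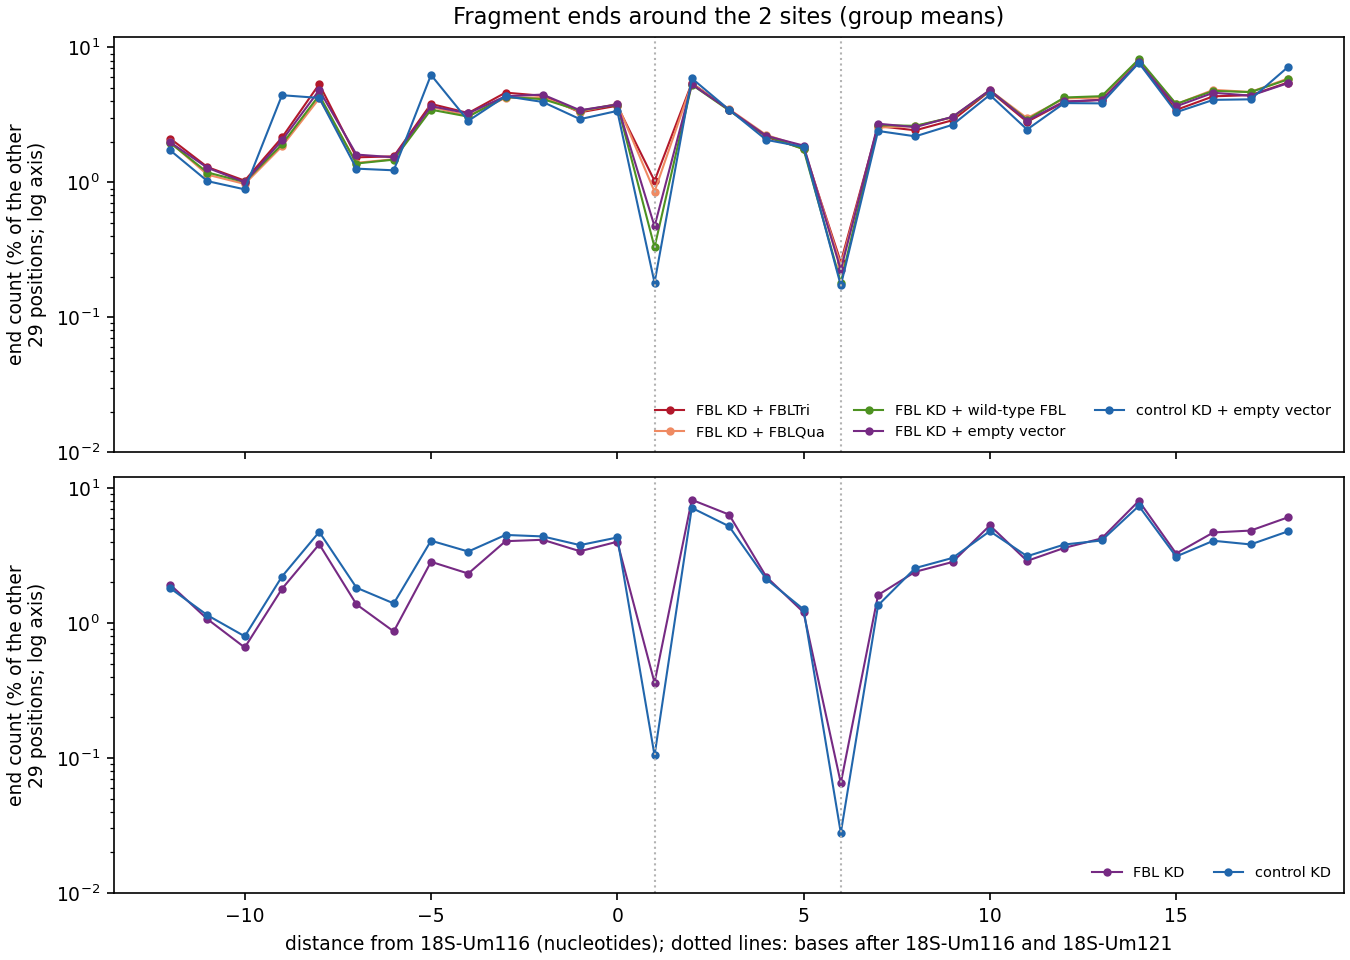
Mean end count of each position, as a percentage of the summed counts of the 29 positions of the window other than the bases after the sites (log axis), against the distance from 18S-Um116 in nucleotides, for groups with a vector (top) and without re-expression (bottom). The gap after 18S-Um116 is shallowest with FBLTri (1.03%) and FBLQua (0.854%) and deepest in control KD cells (0.180% with empty vector, 0.105% without re-expression), while that after 18S-Um121 differs more between the panels than within them.

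Re-expression of wild-type FBL brought 18S-Um116 part of the way back up. Its score averaged 0.899 ± 0.022 with wild-type FBL and 0.860 ± 0.018 with empty vector (SD, n = 2 each), a rise of 0.0396 (SE 0.0139, adjusted p = 0.0368 by limma), where 57.5% of sites were called higher and 0.833% lower, and the median change was 0.0533. It stayed below control KD cells with empty vector (difference -0.0474, adjusted p = 0.0325 by limma), where 29.2% of sites were called lower and 0.833% higher. The gain equals 45.5% of the loss on knockdown with empty vector, a description in which both quantities use the FBL KD libraries with empty vector. The base after 18S-Um116 held 11.7 and 8.52% of its flanking mean with wild-type FBL, against 15.3 and 12.8% with empty vector. Its count relative to the whole library changed by -0.622 on the log2 scale and was not called (adjusted p = 1, edgeR), where 0.138% of positions were called lower and 0% higher. The base after 18S-Um121 changed by -0.435 and was not called either (adjusted p = 1, edgeR). At an unadjusted p under 0.05 there were 97 positions in either direction, and DESeq2 called 30.

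These calls rest on few libraries. The rise over empty vector was lost without replicate 2 of wild-type FBL (0.0238) or replicate 1 of empty vector (0.0267), on a logit scale and in a fit of the compared groups alone, and it turned to -0.0563 with library medians made equal. The deficit against control KD was lost without replicate 1 of wild-type FBL (-0.0317) or either control library (-0.0466 and -0.0482), in a fit without the other groups (adjusted p = 0.102 by limma), and with library medians made equal, where it was -0.0057 (adjusted p = 0.795 by limma).

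At 18S-Um121 no change with wild-type FBL was called. It averaged 0.940 ± 0.016 with wild-type FBL, against 0.926 ± 0.011 with empty vector and 0.939 ± 0.007 in control KD cells with empty vector (SD, n = 2 each). The differences were 0.0142 (95% interval -0.0063 to 0.0348) and 0.00102 (95% interval -0.0195 to 0.0216), with adjusted p = 0.209 and 0.965 by limma. Without replicate 1 of wild-type FBL the first was 0.0259 and was called (adjusted p = 0.0487 by limma).

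Both FBL mutants lowered 18S-Um116 below the level of FBL KD cells with empty vector. It averaged 0.695 ± 0.009 with FBLTri and 0.860 ± 0.018 with empty vector (SD, n = 2 each), a difference of -0.165 (SE 0.0139, adjusted p = 3.27e-05 by limma). With FBLQua it averaged 0.743 ± 0.019, a difference from empty vector of -0.117 (SE 0.0139, adjusted p = 0.000646 by limma). Both comparisons use the same empty vector libraries. FBLTri lowered 20% of all sites and raised 16.7%, FBLQua lowered 11.7% and raised 7.5%, and the median changes over all sites were -0.00097 and 0. 18S-Um116 had the third most negative change of the 120 sites with FBLTri and the fourth with FBLQua. Library medians moved by only -0.00111 and -0.00569 here, so the direction did not turn when they were made equal. The FBLQua call was lost on a logit scale (-0.755, adjusted p = 0.0574 by limma) and in a fit without the other groups (adjusted p = 0.0878 by limma).

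18S-Um121 was not called with either mutant. It averaged 0.914 ± 0.007 with FBLTri and 0.921 ± 0.010 with FBLQua, against 0.926 ± 0.011 with empty vector (SD, n = 2 each). The differences from empty vector were -0.0114 (95% interval -0.0320 to 0.0091) for FBLTri and -0.0050 (95% interval -0.0256 to 0.0156) for FBLQua, with adjusted p = 0.419 and 0.817 by limma. A fall of the size seen at 18S-Um116 lies outside both intervals.

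In the counts, the base after 18S-Um116 held 31.2 and 29.9% of its flanking mean with FBLTri and 27.1 and 24.4% with FBLQua, against 15.3 and 12.8% with empty vector. The share was 2.17 times as high with FBLTri and 1.83 times as high with FBLQua. The base after 18S-Um121 held 8.11 and 9.08% with FBLTri and 8.65 and 7.24% with FBLQua, against 8.24 and 6.66% with empty vector, so the groups overlap there. Relative to the whole library, the base after 18S-Um116 had 99.7 and 79.1 CPM with FBLTri and 66.2 and 70.1 with FBLQua, against 48.4 and 33.6 with empty vector. The log2 changes of 1.19 and 0.744 were not called by edgeR (unadjusted p = 0.00276 and 0.0366, adjusted p = 1 and 0.9999) or DESeq2 (adjusted p = 0.124 and 1). edgeR called 0 of the 6538 positions in either comparison, with 90 and 47 at an unadjusted p under 0.05, and DESeq2 called 3 and 1.

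Against wild-type FBL the deficit at 18S-Um116 was -0.204 with FBLTri (SE 0.0139, adjusted p = 3.72e-06 by limma) and -0.156 with FBLQua (SE 0.0139, adjusted p = 2.15e-05 by limma). With library medians made equal the deficits were -0.107 and -0.0549 and were still called (adjusted p = 7.39e-05 and 0.00494 by limma). In these comparisons 62.5% and 59.2% of sites were called lower and 0% and 0.833% higher, and library medians moved by -0.0969 and -0.102. The median changes over all sites were -0.0642 and -0.0699. 18S-Um121 was lower with FBLTri (difference -0.0257, adjusted p = 0.0332 by limma), and the change with FBLQua was -0.0193 (adjusted p = 0.0935 by limma). The FBLTri call at 18S-Um121 was lost without replicate 1 or 2 of FBLTri (-0.0305 and -0.0209) or replicate 2 of wild-type FBL (-0.0140), on a logit scale and in the compared groups alone, and it turned to 0.0712 with library medians made equal. The FBLQua change was called without replicate 1 of wild-type FBL (-0.0309, adjusted p = 0.0228 by limma).

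FBLTri and FBLQua themselves differed by -0.0478 at 18S-Um116 (95% interval -0.0797 to -0.0159), which was not called after adjustment over the 120 sites (adjusted p = 0.0715 by limma). Both FBLTri libraries lie below both FBLQua libraries. With flanks of 2 positions the difference was -0.0453 and called (adjusted p = 0.0206 by limma), and with library medians made equal it was -0.0524 (adjusted p = 0.0472 by limma). Between the mutants 5% of sites were called lower and 3.33% higher. At 18S-Um121 the difference was -0.0064 (95% interval -0.0270 to 0.0141).

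**Figure D3:**
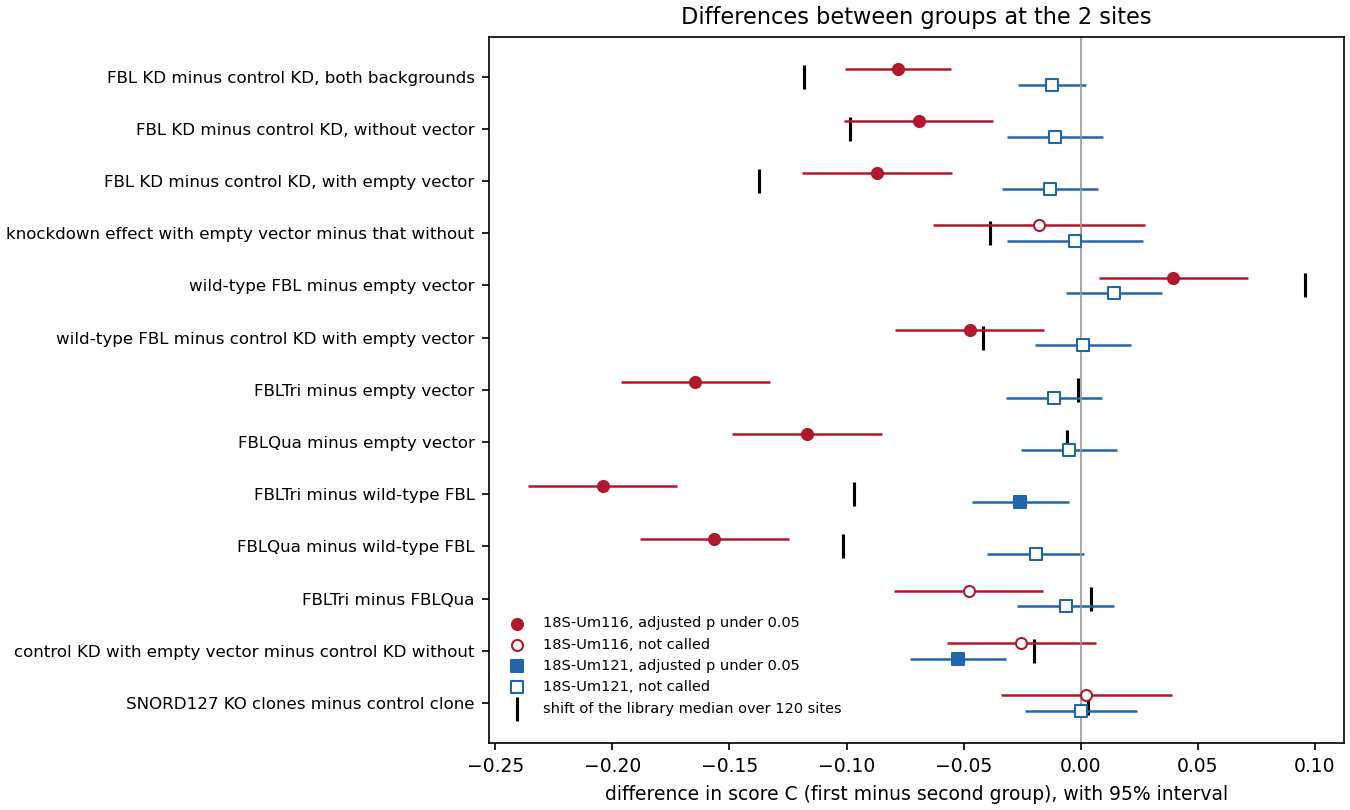
Difference in score C between the groups named at left (first minus second), with 95% intervals, for 18S-Um116 (red circles) and 18S-Um121 (blue squares); filled symbols had an adjusted p under 0.05 and black ticks give the shift of the library median over 120 sites. The mutants lie at -0.165 and -0.117 from empty vector at 18S-Um116 where the median hardly moved, and the knockdown differences of both sites lie to the right of the median shift.

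18S-Um121 also differed between the backgrounds of the cells. In control KD cells it averaged 0.939 ± 0.007 with empty vector and 0.991 ± 0.003 without (SD, n = 2 each), a difference of -0.0523 (SE 0.0090, adjusted p = 0.0124 by limma), where 7.5% of sites were called lower and 0.833% higher. FBL KD cells had 0.926 ± 0.011 with empty vector and 0.980 ± 0.001 without (SD, n = 2 each). The call in control KD cells was lost without replicate 1 of control KD (-0.0500) or replicate 2 of control KD with empty vector (-0.0472), in the compared groups alone, and with library medians made equal (-0.0326, adjusted p = 0.0728 by limma). No test set the background difference against the knockdown difference, and with library medians made equal the knockdown difference of 0.106 was the larger in size. 18S-Um116 changed by -0.0254 between the control backgrounds and was not called (adjusted p = 0.313 by limma); on a logit scale it was (-0.673, adjusted p = 0.00934 by limma).

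Other features of the libraries moved with the background. Those without re-expression had 5533150 to 9021579 end counts, against 11232162 to 14054606 with a vector. Their fragment ends around the sites also differed: the third base after 18S-Um116 held 6.37% of the window's other counts in FBL KD cells and 5.21% in control KD cells without re-expression, against 3.41 to 3.49% in the 5 groups with a vector. The second base after 18S-Um121, next to its gap, held 1.61 and 1.35% in the groups without re-expression, against 2.40 to 2.72% with a vector. The part of depth and fragment pattern in the background difference was not tested.

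The overlap of flanks had little effect on either site. With the counts of other listed sites left out of the flanks, 18S-Um116 averaged 0.889 in FBL KD cells and 0.962 in control KD cells, and 18S-Um121 0.956 and 0.967. No call at either site changed with this choice. With flanks of 2 positions the averages at 18S-Um116 were 0.908 and 0.967, and at 18S-Um121 0.935 and 0.951.

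SNORD127 guides another 18S site, so the clones serve here as further libraries of the same cell line. 18S-Um116 had 0.940 and 0.950 in KO clones C1 and C34, against 0.943 in the control clone. 18S-Um121 had 0.957 and 0.963 in the KO clones, against 0.960 in the control clone. The differences were 0.00238 (95% interval -0.0341 to 0.0388) and 0.00018 (95% interval -0.0237 to 0.0241), with an adjusted p of 1 by limma for each. With 1 control clone the spread was taken from the other groups. The site listed for SNORD127, 18S-1447, changed by -0.327 in the KO clones and was still not called. Absence of a call in this comparison is therefore not absence of a change. limma called 0 of the 120 sites, with 3 at an unadjusted p under 0.05. Clone C1 had 0.923 at 18S-Um116 both with SNORD127 and with empty vector. Its 18S-Um121 score was 0.942 with SNORD127 and 0.935 with empty vector, with no replicate of either library. Over all 5 libraries 18S-Um116 ranged from 0.923 to 0.950 and 18S-Um121 from 0.935 to 0.963.

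Ordered by its mean, 18S-Um116 ran from FBLTri (0.695) over FBLQua (0.743), FBL KD with empty vector (0.860), wild-type FBL (0.899) and FBL KD without re-expression (0.903) to control KD with empty vector (0.947) and without (0.972), with the SNORD127 libraries at 0.923 to 0.950. Wild-type FBL with 0.883 and 0.915 and FBL KD without re-expression with 0.908 and 0.897 overlap, as do control KD with empty vector and the KO clones. 18S-Um121 ran from FBLTri (0.914) over FBLQua (0.921), FBL KD with empty vector (0.926), control KD with empty vector (0.939) and wild-type FBL (0.940) to FBL KD (0.980) and control KD (0.991) without re-expression. FBLTri, FBLQua and FBL KD with empty vector overlap there. Wild-type FBL, at 0.928 and 0.951, overlaps with both FBL KD and control KD with empty vector. FBL KD with empty vector, at 0.918 and 0.933, lies below control KD with empty vector, at 0.944 and 0.934, by a margin within the counting interval of a single library.

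The sites whose scores followed 18S-Um116 most closely over the 14 knockdown libraries were 18S-159 (Pearson r = 0.984, guides SNORD45A and SNORD45C), 18S-1328 (r = 0.983, SNORD32A and SNORD32B) and 18S-1326 (r = 0.980, SNORD33). Those most like 18S-Um121 were 18S-468 (r = 0.939, SNORD83A), 28S-3866 (r = 0.923, SNORD47) and 18S-462 (r = 0.904, SNORD14A and SNORD14B). The points share libraries, groups and library-wide shifts, so these values are a description. 18S-Um116 and 18S-Um121 had r = 0.743 with each other, which put 18S-Um121 52nd among the other sites by likeness to 18S-Um116. Against empty vector 18S-159 changed by -0.193 with FBLTri and -0.132 with FBLQua, 18S-1328 by -0.0656 and -0.0614, and 18S-1326 by -0.0807 and -0.0508. The mutant libraries are among those that chose these sites, so the changes are a description with no test. 18S-468 averaged 0.982 in both FBL KD and control KD cells without re-expression, against 0.869 and 0.868 with empty vector.

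**Figure D4:**
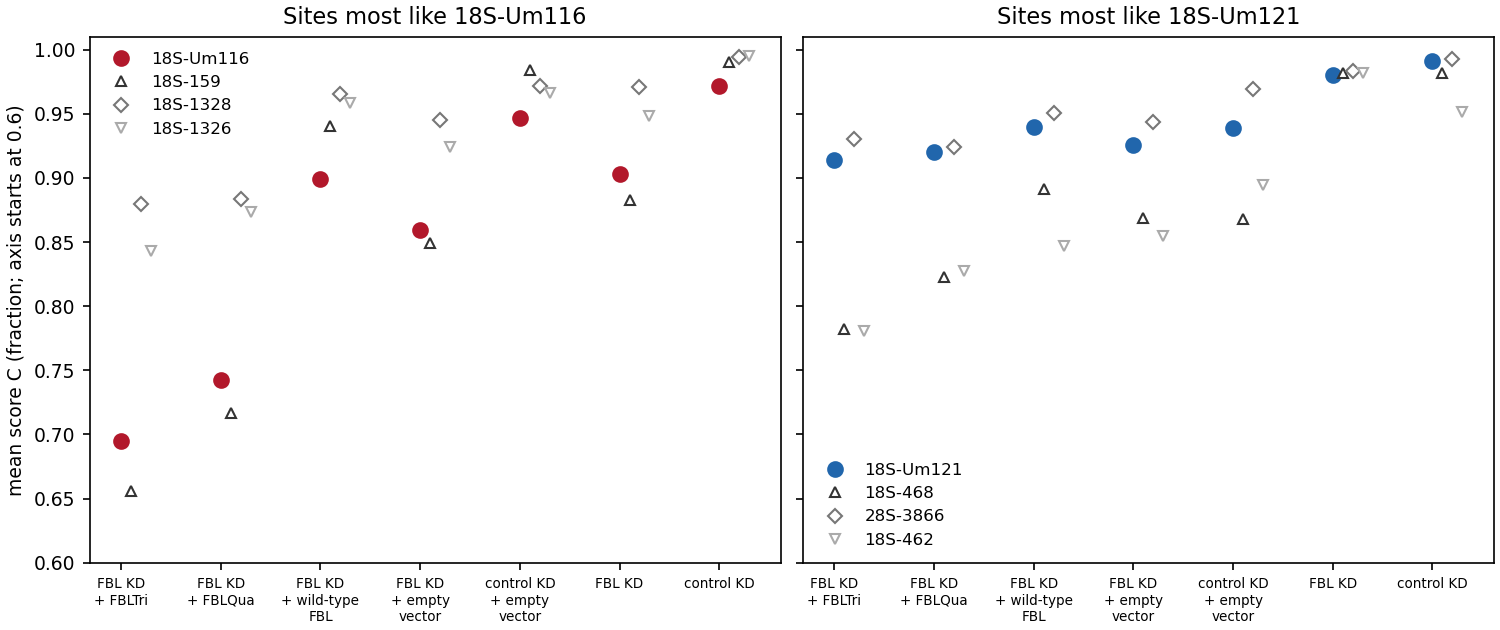
Mean score C (fraction, axis from 0.6) per knockdown group of 18S-Um116 with its 3 most similar sites (left) and of 18S-Um121 with its 3 most similar sites (right). 18S-159 follows 18S-Um116 down to 0.656 with FBLTri, while 18S-468 and 18S-Um121 are both highest in the groups without re-expression.

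Among wider lists, 7 of the 11 measured 18S sites with a U at the methylated position fell on FBL KD over both backgrounds, with a median change of -0.0440, beside 71.7% and -0.0853 over all 120 sites. Of the 33 sites with 2 or more listed guides 25 fell (median -0.0781), and of the 44 sites with another listed site within 6 nucleotides 33 fell (median -0.0854). Against empty vector, 4 of the 11 18S U sites were lower and 0 higher by limma with either mutant, 18S-Um116 among them. Their median changes were -0.0114 for FBLTri and -0.0137 for FBLQua. The share called among all 47 18S sites was not counted, so a part of U cannot be told apart from that of the subunit. Of the 33 sites with 2 or more guides, 8 were lower and 5 higher with FBLTri, and 6 and 2 with FBLQua. Of the 44 sites with a close neighbour, 11 were lower and 8 higher with FBLTri, and 8 and 3 with FBLQua. Of all 120 sites, FBLTri had 20% called lower against 16.7% called higher, while FBLQua had 11.7% called lower against 7.5% called higher. Both 18S-Um116 and 18S-Um121 are members of all 3 lists.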

How the data were processed

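Cells were grown with 20% serum and 100 ng of their RNA was broken by alkali (12 min at 95 °C) into fragments near 30 nucleotides long, per the labels' protocols. cutadapt and Bowtie2 are named in the submitters' processing notes; the sources used here give no settings, reference sequence or choice of fragment end. The authors deposited whole-number end counts for 7000 positions, not normalized, and score C as a fraction for 120 sites, set to 0 where negative. With weights from 1 to 0.5 over 6 positions on either side, the counts returned all 2280 of 2280 deposited scores within 1e-09.

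Columns were matched to samples by the description labels, and groups were taken from titles. Score C was tested with limma 3.58.1 in R 4.3.3 (1 coefficient per group, variance trend, two-sided, Benjamini-Hochberg over 120 sites at 0.05). Knockdown comparisons used 14 libraries and the KO comparison all 19. End counts were tested with edgeR 4.0.16 (TMM, filterByExpr, quasi-likelihood) over 6538 positions, with DESeq2 1.42.0 as alternative. Counting intervals (95%, delta method) cover counting error only, since reads carry no molecular identifiers. Over all positions chi-square per degree of freedom between replicates was 17.9 to 699.8, so none agreed within sampling noise. Tests were also run on simulated counts with the same spread in all libraries, and no result here rests on that run. Python 3.11.15, scipy 1.17.1, pandas 2.3.3, numpy 2.4.6 and matplotlib 3.10.9 served for the rest.

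The sites and lists were chosen with earlier results of these data known. Named besides the 2 sites were, for each, the 3 sites with the highest Pearson r over the 14 knockdown libraries. U at 11 18S sites comes from background knowledge. Alternatives were the compared groups alone, no trend, a logit scale (scores held within 0.001 and 0.999), flanks of 2 positions, other sites left out of flanks, no setting to 0, equal library medians, a replicate block, each library left out and, for counts, DESeq2, no TMM and no filter. Exchange of libraries within a background only was added after seeing the data. Guide and rRNA sequences were not used here.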

Additional observations from a re-analysis of the deposited data

How the results depend on the processing

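Of 406 recomputed values 336 kept their direction and side of the threshold. Leaving other sites out of the flanks, scores not set to 0, no variance trend, no TMM, no filter and the replicate block changed no call or direction. The replicate block gave -0.0781 at 18S-Um116 for FBL KD over both backgrounds and 1.95 on the log2 scale at the base after 18S-Um116. The titles give same-numbered libraries a shared number and no shared batch. Their deviations from group means correlated at -0.226 to 0.694 over 21 pairs of groups (median 0.159), with 12 pairs over 0.1. Whether some groups shared a batch was not tested.

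With library medians made equal, differences at 18S-Um116 and 18S-Um121 were, in that order, 0.0401 and 0.106 (now called) for FBL KD over both backgrounds. With empty vector they were 0.0506 and 0.124 (now called), and without 0.0295 (no longer called) and 0.0878 (now called). The effect of FBL KD compared between backgrounds was 0.0211 and 0.0366. Wild-type FBL gave -0.0563 and -0.0816 (now called) against empty vector. Against control KD it gave -0.0057 (no longer called) and 0.0428 (now called). For the KO clones the differences were -0.00076 and -0.0030. At 18S-Um121 they were 0.00069 for FBLQua against empty vector and -0.0326 between control backgrounds, no longer called. Against wild-type FBL they were 0.0712 for FBLTri and 0.0822 (now called) for FBLQua there. FBLTri minus FBLQua at 18S-Um116 was -0.0524 (now called). 18S U sites called lower on FBL KD fell to 1, sites with 2 or more guides to 9 and sites with a close neighbour to 14.

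On a logit scale 18S-Um116 gave 0.384 for wild-type FBL and -0.755 for FBLQua against empty vector, -0.673 between control backgrounds and 0.260 (18S-Um121: 0.640) for the effect of FBL KD compared between backgrounds. 18S-Um121 gave -0.528 and -0.848 for FBL KD over both backgrounds and without re-expression, and -0.401 for FBLTri against wild-type FBL. The gap between the sites gave 0.660, and its deposited value of 0.0660 was no longer called with libraries exchanged within a background only. With flanks of 2, FBLTri minus FBLQua was -0.0453 at 18S-Um116 and the effect of FBL KD compared between backgrounds 0.0068 at 18S-Um121. DESeq2 gave 1.17 at the base after 18S-Um121.

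In the compared groups alone 18S-Um116 was not called for wild-type FBL against empty vector (0.0396) or control KD (-0.0474) nor for FBLQua (-0.117), and 18S-Um121 not for FBLTri against wild-type FBL (-0.0257) or between control backgrounds (-0.0523). The cause of these changes was not tested.

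Leaving out 1 library gave, at 18S-Um116, 0.0238 to 0.0553 for wild-type FBL against empty vector, -0.0631 to -0.0317 against control KD and -0.0024 to 0.0072 for the KO clones. At 18S-Um121 it gave -0.0102 to 0.0056 for the effect of FBL KD compared between backgrounds, 0.0026 to 0.0259 and -0.0106 to 0.0127 for wild-type FBL against empty vector and control KD, -0.0129 to 0.0029 for FBLQua against empty vector, -0.0374 to -0.0140 and -0.0309 to -0.0076 for FBLTri and FBLQua against wild-type FBL, -0.0135 to 0.00059 between the mutants, -0.0575 to -0.0472 between control backgrounds and -0.0030 to 0.0034 for the KO clones. The FBLTri and FBLQua calls at 18S-Um116 against empty vector and wild-type FBL were kept each time. The base after 18S-Um121 gave 0.704 to 1.70 for FBL KD and -0.237 to 0.253 for FBLQua on the log2 scale. The gap between the sites gave 0.0600 to 0.0705, with an exact permutation p of 0.0571 each time, the smallest that the remaining libraries allow. The KO comparison could not be made without its 1 control clone. The base after 18S-Um121 held as few as 12 reads, which limits its precision.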
